A study of Mus musculus with 9 samples.

Results

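The genes described here are 10 effector genes that microglia are known to switch on around amyloid plaques: Cst7, Lpl, Spp1, Gpnmb, Clec7a, Igf1, Itgax, Ank, Cd9 and Cd63. They were taken by symbol from the deposited table of 18571 genes, all 10 were found, and all 10 were among the 14696 genes that passed the filter on low counts. Microglia, the phagocytes that reside in brain tissue, were captured from cortex and hippocampus of 9-month-old mice on plates coated with antibody to CD45, a protein of all white blood cells, and their polyadenylated RNA was sequenced. The study asks what connexin 43 (Cx43, encoded by Gja1), a gap junction protein, does in microglia in an amyloid model.

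Microglia that meet amyloid enter a state often called disease-associated, in which receptors for lipids and debris, secreted factors, and lysosomal and lipid-handling proteins rise while some resting-state genes fall. The full form of that state is known to depend on the receptor Trem2 and its adaptor Tyrobp. The 10 genes cover several of its arms: secreted factors (Spp1, Igf1, Lpl), surface receptors and adhesion proteins (Clec7a, Itgax, Gpnmb), a protease inhibitor (Cst7), a transporter (Ank) and membrane organisers of the endosome and surface (Cd9, Cd63).

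Each of 3 groups had 3 libraries. The wild type (WT) mice carried no named transgene, the APP/PS1 mice carried disease transgenes that lead to amyloid deposits, and the remaining group, called Cx43 cKO or knockouts here, was APP/PS1:Cx3cr1-CreER:Cx43-flox/flox. CreER is a recombinase switched on by tamoxifen and here expressed from Cx3cr1, which is active in microglia and also in other macrophages and in monocytes. The labels give the same tamoxifen course for all samples, 0.1 mg/g by mouth for 5 days at 8 months of age, and the design text gives a C57BL6/j background. The labels name Cre and floxed alleles only in the Cx43 cKO group, so deletion of Cx43 and presence of Cre cannot be told apart. They do not say whether the libraries of a group came from separate animals, and p-values measure only the spread between these libraries, which may be technical.

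Estimated counts summed to between 18907681 and 19565354 per library. Gja1 was present in every library, with 642 to 716 estimated counts in WT, 688 to 788 in APP/PS1 and 484 to 539 in knockouts. It was lower in knockouts than APP/PS1, with a log2 change of -0.56 (SE 0.06, edgeR adjusted p 7.95e-09). On TPM, the deposited values per transcript length, that change was -0.35. Against WT Gja1 was at -0.32 in knockouts (edgeR adjusted p 7.62e-05), and at -0.495 on TPM. Astrocytes also make Gja1, and of 15 astrocyte markers 14 were lower in knockouts than APP/PS1, with a median log2 change of -0.47, where 27.7% of all tested genes were lower. Against WT 5 were lower and 6 higher in knockouts, beside 23.0% and 24.7% of all tested genes, but 9 lower and 2 higher on TPM, beside 49.4% and 12.2%. Their part in the change of Gja1 was not tested. Ddx3y, a gene of the Y chromosome, had 4137 to 4538 counts in WT and APP/PS1 and 0 to 2.34 in knockouts, so that sex and the knockout genotype cannot be told apart. Cx3cr1 was lower in knockouts by -0.88 (SE 0.03, edgeR adjusted p 9.07e-21) relative to APP/PS1. The labels name CreER, expressed from Cx3cr1, only in knockouts, so that allele and any other source of this change cannot be told apart. The 13 microglia and macrophage markers summed to 28015 CPM (TMM-scaled counts relative to library size) in WT, 33596 CPM for APP/PS1 and 29129 CPM in knockouts, and none was at 0. In APP/PS1 against WT 8 were called higher and 3 lower, beside 26.9% and 32.0% of all tested genes. On TPM 5 were higher and 6 lower, beside 11.4% and 65.9%. Between knockouts and APP/PS1 3 were higher and 9 lower, beside 27.3% and 27.7%, and on TPM 5 and 8, beside 46.6% and 15.3%. In RNA pooled from many cells, fewer responding cells and less RNA per responding cell cannot be told apart.

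All 10 genes were higher in APP/PS1 than in WT, by 2.67-fold (Cd9) to 89.8-fold (Cst7), and 10 of 10 passed the edgeR quasi-likelihood test at an adjusted p of 0.05, a direction in which 26.9% of all tested genes were called. All 10 rose at least 2-fold, as did 4.83% of tested genes. Only 9 did so with length offsets, which take out the median difference of each of 10 bins of transcript length. There Cd9 was at 0.78 on the log2 scale. The CPM ranges of the groups did not overlap for any of the 10, which held for 63.5% of tested genes. The median log2 change was 3.55 over the 10 genes and -0.04 over all tested genes. Together they took 0.0926% ± 0.0011 of the counts in WT, 0.569% ± 0.00653 in APP/PS1 and 0.395% ± 0.0048 in knockouts (SD, n = 3).

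**Figure D1:**
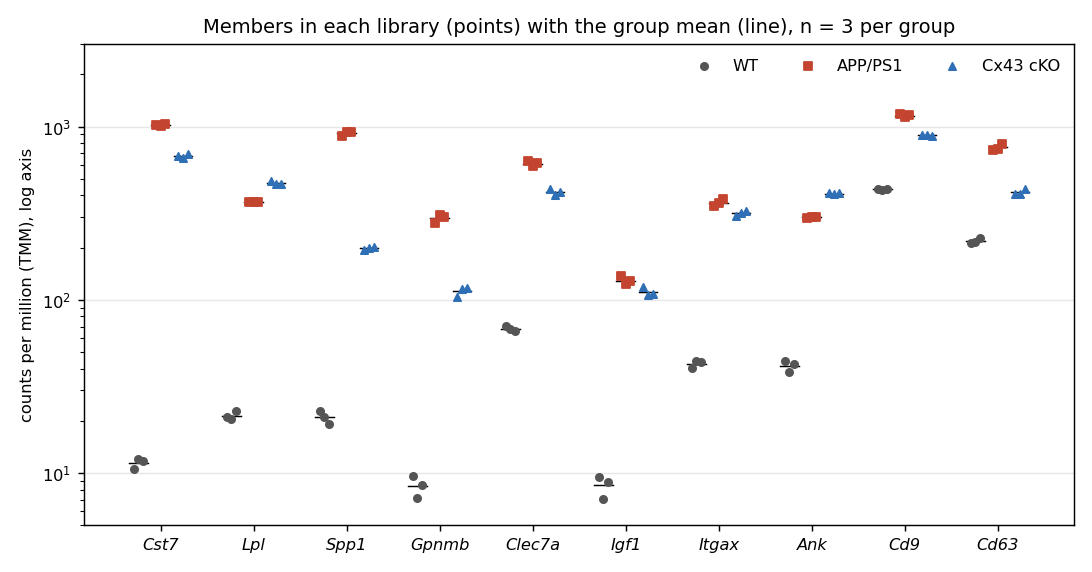
CPM (TMM-scaled, log axis) of each of the 10 genes in every library, with a line at the mean of each group (n = 3). All APP/PS1 and Cx43 cKO points lie above the WT points of the same gene, and of the 10 only Lpl and Ank have Cx43 cKO points above those of APP/PS1.

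Within the amyloid model the 10 genes split by direction. Between knockouts and APP/PS1, where each log2 change is given as knockouts minus APP/PS1, 8 were lower and 2, Lpl and Ank, were higher, all past the test, where 27.7% of tested genes were called lower and 27.3% higher. At least 2-fold lower were Spp1 and Gpnmb, as were 3.06% of tested genes. The median log2 change was -0.46 over the 10 genes and -0.01 over all tested genes, and 10 of 10 did not overlap in CPM against 59.7% of tested genes. With length offsets 7 were lower and 3 higher (median -0.26), beside 25.8% and 26.3% of all tested genes. On TPM 6 were lower and 2 higher (median -0.27), beside 15.3% and 46.6%. Against WT all 10 remained higher in knockouts, where 24.7% of tested genes were called higher and 54.6% did not overlap, and their median log2 change was 3.28 against -0.01. Of these, 9 were at least 2-fold higher (Cd63 was not), as were 3.00% of tested genes, and 8 were on TPM, on FPKM, with library totals and with length offsets, where Cd9 was between 0.84 and 0.93 on the log2 scale. This comparison shares its libraries with the other two, so it adds no separate evidence.

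**Figure D2:**
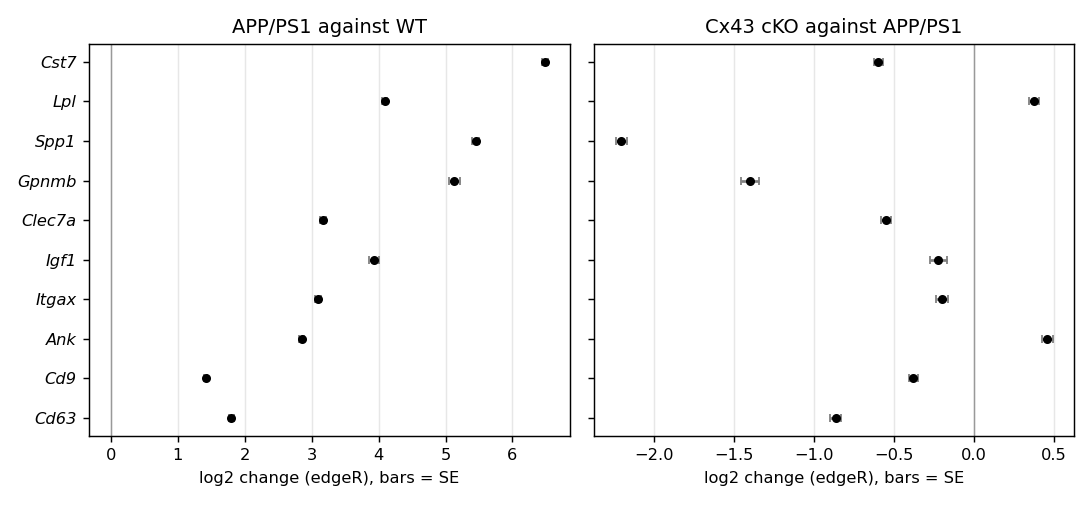
Log2 changes of the 10 genes from the edgeR fit over all genes, with the standard error as bars, in APP/PS1 against WT (left) and Cx43 cKO against APP/PS1 (right). The changes on the left run from 1.41 (Cd9) to 6.49 (Cst7), and those on the right from -2.20 (Spp1) to 0.46 (Ank).

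Among the secreted factors, Spp1 encodes osteopontin, a phosphoprotein of the matrix that binds integrins and CD44. It stood at 22.8, 20.9 and 19.2 CPM for WT libraries 1 to 3, at 881, 929.6 and 932 CPM for APP/PS1 and at 194, 199 and 202 CPM in knockouts. The 3 groups were fully apart, with knockouts between WT and APP/PS1. Spp1 rose in the APP/PS1 group, with a log2 change of 5.45 (SE 0.04, edgeR adjusted p 1.32e-32), and it fell by 2.20 from APP/PS1 to knockouts (SE 0.03, edgeR adjusted p 1.68e-26), the 36th lowest change of 14696 tested genes. Of its increase in APP/PS1 over WT, 19.9% ± 0.461 was present in knockouts (mean and SD of 3 knockout libraries, on the CPM scale). For this and the later shares the WT and APP/PS1 means were held fixed, so the SD leaves out their spread. Macrophages of the brain borders also make Spp1, and 10 markers of those cells summed to 576, 473 and 383 CPM in WT, APP/PS1 and knockouts. Of the 10, 5 were called higher and 4 lower in APP/PS1 than in WT (median log2 change 0.21), beside 26.9% and 32.0% of all tested genes. Between knockouts and APP/PS1 1 was higher and 9 lower (median -0.72), beside 27.3% and 27.7%. With length offsets the first median was -0.17. The part of these cells in the change of Spp1 was not tested.

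Igf1 encodes insulin-like growth factor 1, a secreted growth factor for neurons and glia. Its CPM values were 9.44, 7.09 and 8.82 for WT, 137, 122 and 128 for APP/PS1, and 118, 106 and 108 in knockouts. The disease-model groups lay close together and far above WT. Igf1 rose in APP/PS1 by 3.93 (SE 0.08, edgeR adjusted p 6.31e-18), and knockouts were lower than APP/PS1, with a log2 change of -0.22 (SE 0.05, edgeR adjusted p 0.00164). That last call was lost on the TPM scale, where the change was -0.026 (limma adjusted p 0.798) and the ranges overlapped, and on log2(FPKM + 0.1), where it was -0.19 (limma adjusted p 0.108).

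Lpl encodes lipoprotein lipase, which releases fatty acids from lipoproteins. Its levels were 21.0, 20.4 and 22.8 CPM for WT, 365, 367 and 365 CPM for APP/PS1 and 488, 465 and 468 CPM in knockouts, so every knockout library was above every APP/PS1 library. The rise in APP/PS1 was 4.09 (SE 0.04, edgeR adjusted p 7.64e-31), and knockouts were higher again by 0.37 (SE 0.03, edgeR adjusted p 5.15e-11), a 1.30-fold difference. The increase over WT in knockouts was 131% ± 3.68 of that in APP/PS1 (SD, n = 3).

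Gpnmb, a surface and lysosomal glycoprotein of lipid-laden macrophages, followed Spp1 in direction. It stood at 9.59, 7.14 and 8.47 CPM for WT, 277, 307 and 300.0 CPM for APP/PS1 and 104, 115 and 117 CPM in knockouts. The 3 groups did not overlap, and knockouts lay between the others. The rise in APP/PS1 was 5.13 (SE 0.08, edgeR adjusted p 1.33e-16) and the change between knockouts and APP/PS1 was -1.40 (SE 0.05, edgeR adjusted p 1.35e-11), or 2.64-fold. In knockouts 36.1% ± 2.44 of the increase was present (SD, n = 3).

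Clec7a encodes dectin-1, a receptor for fungal glucans that signals through Syk. It was at 70.5, 67.9 and 65.7 CPM for WT, 635, 588 and 613 CPM for APP/PS1 and 434, 404 and 417 CPM in knockouts. Every knockout library lay below every APP/PS1 library. The log2 change was 3.17 (SE 0.04, edgeR adjusted p 5.11e-29) from WT to APP/PS1 and -0.55 (SE 0.03, edgeR adjusted p 9.58e-14) between knockouts and APP/PS1. Monocytes and neutrophils also make Clec7a, and the 14 markers of those cells summed to 3084 CPM for WT, 957 CPM for APP/PS1 and 8788 CPM in knockouts. Their part in the change of Clec7a was not tested.

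Itgax encodes CD11c, the alpha chain of complement receptor 4, and is used as a marker of dendritic cells as well as of plaque-associated microglia. It was at 40.3, 44.1 and 43.5 CPM for WT, 347, 363 and 380.0 CPM for APP/PS1 and 303, 319 and 327 CPM in knockouts. The lowest APP/PS1 library was above the highest knockout library, and both groups were far above WT. Itgax rose in APP/PS1 by 3.09 (SE 0.04, edgeR adjusted p 4.08e-27) and was lower in knockouts than APP/PS1 by -0.20 (SE 0.04, edgeR adjusted p 3.34e-05). On the TPM scale the second change was -0.015 and did not pass (limma adjusted p 0.785). The 10 dendritic cell markers summed to 107 to 110 CPM for WT, 86.1 to 91.3 CPM for APP/PS1 and 80.8 to 85.9 CPM in knockouts. Of the 10, 3 were called higher and 4 lower in APP/PS1 than in WT, and 3 higher and 3 lower between knockouts and APP/PS1, near the shares over all tested genes of 26.9% and 32.0%, then 27.3% and 27.7%. On TPM 0 were higher and 6 lower, then 5 and 1, beside 11.4% and 65.9% of all tested genes, then 46.6% and 15.3%. Their part in the changes of Itgax was not tested.

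Ank encodes a membrane protein that exports pyrophosphate and other small metabolites. It was at 44.0, 38.0 and 42.4 CPM for WT, 297, 299.6 and 300.0 CPM for APP/PS1 and 411, 405 and 415 CPM in knockouts, the highest group for this gene. The rise was 2.85 (SE 0.04, edgeR adjusted p 1.39e-27) from WT to APP/PS1, and a further 0.46 (SE 0.03, edgeR adjusted p 4.41e-12) between knockouts and APP/PS1. Its increase over WT in knockouts was 143% ± 1.86 of that in APP/PS1 (SD, n = 3).

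Cst7 encodes cystatin F, an inhibitor of lysosomal cysteine proteases such as cathepsin C. It rose from 10.5, 12.1 and 11.7 CPM for WT to 1026, 1010.1 and 1038 CPM for APP/PS1, and stood at 679, 659.6 and 691 CPM in knockouts. The rise of 6.49 (SE 0.04, edgeR adjusted p 1.32e-34) was the 6th largest of 14696 tested genes. Knockouts were lower than APP/PS1 by -0.60 (SE 0.03, edgeR adjusted p 8.74e-16). With length offsets that last change shrank to -0.099 (edgeR adjusted p 0.006). T and NK cells also make Cst7, and 9 markers of those cells summed to 37.2 CPM for WT, 66.1 CPM for APP/PS1 and 42.1 CPM in knockouts, none of them at 0 in all libraries of a group. Of the 8 tested, 7 were called higher in APP/PS1 than in WT and 7 lower between knockouts and APP/PS1, against 26.9% and 27.7% of all tested genes. With length offsets 5 and 4 were, against 26.6% and 25.8%. The part of T and NK cells in the changes of Cst7 was not tested.

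Cd9 and Cd63 encode tetraspanins, membrane proteins that organise partners at the surface and in late endosomes and that mark extracellular vesicles. Many other cell types also make both. Cd9 was at 437, 431 and 435 CPM for WT, 1177, 1135 and 1162 CPM for APP/PS1 and 891, 895 and 888 CPM in knockouts. Cd63 was at 212, 216 and 226 CPM for WT, 735, 746 and 793 CPM for APP/PS1 and 407, 407 and 436 CPM in knockouts. Both were well expressed in WT and rose less than the other 8 genes did.

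In APP/PS1 the changes were 1.41 (SE 0.03, edgeR adjusted p 1.00e-24) for Cd9 and 1.80 (SE 0.04, edgeR adjusted p 9.19e-24) for Cd63. Between knockouts and APP/PS1 they were -0.38 (SE 0.03, edgeR adjusted p 1.31e-12) and -0.86 (SE 0.03, edgeR adjusted p 2.58e-17). With length offsets Cd9, which lies near the edge of its length bin, turned to 0.12 (edgeR adjusted p 0.000348). Cd63 shrank to -0.36 (edgeR adjusted p 1.21e-08). In the first comparison the same step gave 0.78 for Cd9, 1.16 for Cd63 and 5.85 for Cst7. The 15 astrocyte markers, whose cells also make Cd9 and Cd63, summed to 624 CPM ± 3.06 for WT, 894 CPM ± 7.91 for APP/PS1 and 681 CPM ± 5.45 in knockouts (SD, n = 3), and their part in the changes of Cd9 and Cd63 was not tested.

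The share of the APP/PS1 increase that was present in knockouts was lowest for Spp1. On the CPM scale it was 36.8% ± 3.12 for Cd63, 63.1% ± 0.479 for Cd9, 64.4% ± 2.74 for Clec7a, 65.6% ± 1.55 for Cst7, 84.7% ± 5.57 for Igf1 and 85.3% ± 3.68 for Itgax (SD, n = 3). The ranges of knockout libraries overlapped between Gpnmb and Cd63 and between Igf1 and Itgax, and that of Clec7a overlapped those of Cd9 and Cst7. These SDs and ranges leave out the spread of WT and APP/PS1, so close shares such as those of Cd9 and Cst7 cannot be ordered by them. On the TPM scale Spp1 stayed lowest at 22.5%, Cd63 and Gpnmb were at 40.4% and 41.2%, Clec7a, Cst7 and Cd9 at 74.5%, 75.2% and 76.4%, Igf1 and Itgax reached 98.0% and 98.8%, and Lpl and Ank 152% and 169.9%. From the changes fitted with length offsets, with no error, the order was another one: Spp1 stayed lowest and Gpnmb was at 34.5%, but Cd63 was at 59.7%, Cst7 at 93.2% and Cd9 at 121%.

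The length step bears on these 3 genes because they are the shortest of the 10. The lengths implied by the deposited counts and FPKM values were 855 nt for Cd63, 939 nt for Cst7 and 1149 nt for Cd9, all in the shortest of 10 equal bins of tested genes. All genes of a bin share the same offset. The shortest bin ended at 1174.6 nt, so the values of Cd9 with length offsets depend on where that edge falls. In that bin the median log2 change over 1467 genes was 0.61 in APP/PS1 against WT and -0.52 between knockouts and APP/PS1. Spp1, at 1373 nt, was in the next bin, with medians of 0.17 and -0.16. The remaining 6 genes ran from 2104 nt (Clec7a) to 7022 nt (Igf1), in bins with medians between -0.10 and -0.02 in the first comparison and between 0.02 and 0.05 in the second. Spp1 and Gpnmb (lower) and Lpl and Ank (higher) kept their directions between knockouts and APP/PS1 under each scaling tried, with Spp1 between -2.20 and -2.00, Gpnmb between -1.47 and -1.19, Lpl between 0.31 and 0.57 and Ank between 0.39 and 0.65, and Clec7a stayed between -0.57 and -0.35.

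**Figure D3:**
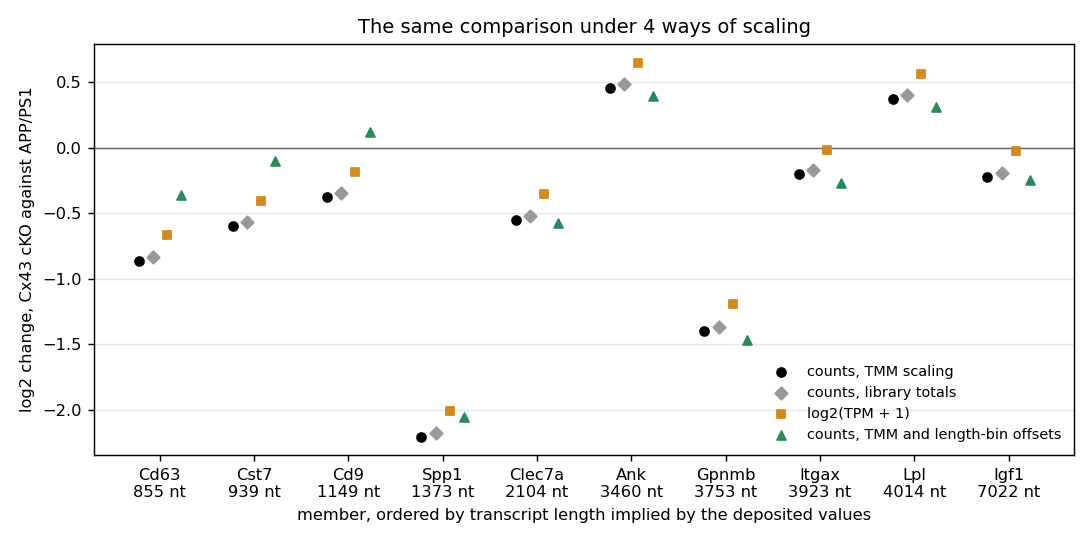
Log2 change of each gene in Cx43 cKO against APP/PS1 with TMM-scaled counts, with library totals, on log2(TPM + 1) and with offsets by length bin, the genes being ordered from the shortest (Cd63, 855 nt) to the longest (Igf1, 7022 nt) implied transcript. The 3 shortest genes move most with the length offsets, and Cd9 changes sign to 0.12.

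Ratios between genes of like length within a library do not depend on the scaling of the library. Lpl, Gpnmb, Itgax and Ank fell in the same length bin. Lpl per Gpnmb, as a ratio of TPM levels, was 2.42 ± 0.323 in WT, 1.16 ± 0.0623 in APP/PS1 and 3.99 ± 0.365 in knockouts (SD, n = 3), with no overlap of the 3 groups. Gpnmb per Ank was 0.186 ± 0.0136, 0.906 ± 0.0450 and 0.250 ± 0.0158 in the same order. By contrast, Lpl per Ank was 1.05 ± 0.00500 in APP/PS1 and 0.995 ± 0.0262 in knockouts, against 0.446 ± 0.030 in WT. Among the short genes, Cd9 per Cd63 was 1.48 ± 0.0504 in WT, 1.14 ± 0.0503 in APP/PS1 and 1.59 ± 0.0678 in knockouts. These ratios are given as a description, with no test.

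Levels per transcript length put the 10 genes in a different order in each group. In WT the tetraspanins led, with Cd9 at 891 TPM ± 8.23 and Cd63 at 601 TPM ± 19.8, ahead of Clec7a at 76.3 TPM ± 2.77 (SD, n = 3). Igf1 was the lowest at 2.83 TPM ± 0.420, and the ranges of Cst7, Ank and Itgax, at 28.7, 28.3 and 25.6 TPM, overlapped between neighbours. In APP/PS1 Cst7 led at 1962 TPM ± 28.6, followed by Cd9 at 1811 TPM ± 35.6, Cd63 at 1593 TPM ± 64.3 and Spp1 at 1194 TPM ± 36.8. There Itgax and Lpl, at 167 and 164 TPM, could not be ordered. In knockouts Cd9 led again at 1594 TPM ± 4.27, Cst7 came next at 1483 TPM ± 37.7, and Spp1, at 297 TPM ± 5.81, lay behind Clec7a at 409 TPM ± 15.6. Ank and Lpl, at 244 and 243 TPM, overlapped and both lay above Itgax at 165 TPM ± 5.38. Igf1 was the lowest in all 3 groups, at 33.0 TPM ± 1.85 in APP/PS1 and 32.4 TPM ± 2.04 in knockouts.

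RefSeq windows on GRCm38.p6, the build named in the submitters' processing notes, were found for 9 of the 10 genes (not Lpl), 11 windows in all, and are given as the 250 bases before the annotated start, read on the strand of the gene. They are shown for Spp1 and Gpnmb, which fell most in knockouts, and for Ank, which rose. Spp1 lies on chromosome 5 from 104435111 to 104441053, Gpnmb on chromosome 6 from 49036518 to 49058182, and Ank on chromosome 15 from 27466677 to 27594909, all protein coding. Spp1 has 2 windows, of which the first is shown. The windows shown are chr5:104434861-104435110, chr6:49036268-49036517 and chr15:27466427-27466676 on the plus strand. Capitals mark GAGGAA, a core of sites for the macrophage factor PU.1, on either strand, which was not found in the Gpnmb window.
Spp1: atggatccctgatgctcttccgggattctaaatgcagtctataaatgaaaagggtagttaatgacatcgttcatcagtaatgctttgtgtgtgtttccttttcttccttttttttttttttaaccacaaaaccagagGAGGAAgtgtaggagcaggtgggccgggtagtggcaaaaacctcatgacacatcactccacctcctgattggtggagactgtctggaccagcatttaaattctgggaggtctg
Gpnmb: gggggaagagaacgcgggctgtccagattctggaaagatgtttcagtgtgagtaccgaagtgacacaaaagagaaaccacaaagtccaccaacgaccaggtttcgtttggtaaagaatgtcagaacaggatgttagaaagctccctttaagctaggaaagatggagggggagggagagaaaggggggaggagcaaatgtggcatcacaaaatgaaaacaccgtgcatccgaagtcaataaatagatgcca
Ank: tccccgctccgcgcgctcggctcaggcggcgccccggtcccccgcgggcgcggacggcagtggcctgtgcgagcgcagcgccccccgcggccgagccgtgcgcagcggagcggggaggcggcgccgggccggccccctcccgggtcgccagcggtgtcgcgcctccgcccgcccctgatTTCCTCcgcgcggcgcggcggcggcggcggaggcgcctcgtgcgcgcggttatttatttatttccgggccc

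The other 7 genes are also protein coding. Cst7 lies on chromosome 2 from 150570415 to 150578944, Lpl on chromosome 8 from 68880555 to 68906932, Clec7a on chromosome 6 from 129461591 to 129472785 and Cd9 on the same chromosome from 125460266 to 125494760. Igf1 lies on chromosome 10 from 87858265 to 87937047 and Cd63 on the same chromosome from 128896231 to 128912822, Itgax on chromosome 7 from 128129526 to 128150657.

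GC content was 43.6% in the Spp1 window shown, 35.6% in the second Spp1 window (chr5:104435942-104436191, which holds no GAGGAA) and 47.2% in the Gpnmb window, near or below the median of 52.4% over 32851 windows of all genes. It was 81.2% in the Ank window, which holds 49 CG pairs against a median of 6. Of 7 short motifs searched on both strands, chosen after the expression values were seen, GAGGAA was in 6 of the 11 windows (5 of 9 genes) and in 23.3% of all windows. TGANTCA, the letters of AP-1 sites, was in the windows of Itgax and Igf1 and in 6.75% of all windows. CACGTG, bound by the lysosomal regulators of the Tfeb family, was in none of the 11 windows and in 6.02% of all. CATGTG was in the Cd9 window (12.3% of all), TATAAA in 1 of the Spp1 windows (12.4%), GGGCGG in those of Ank and Cd9 (32.7%) and AGGTCA in that of Igf1 (14.0%). A match of letters is a description and shows no binding.

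Genes known to act with the 10 moved in both directions. Of 35 listed partners (receptors, binding proteins, target proteases and signalling proteins), 34 were tested, 7 were higher and 17 lower in APP/PS1 than in WT, and 18 were higher and 12 lower in knockouts than APP/PS1. The median log2 changes were -0.15 and 0.12. Over all tested genes 26.9% were higher and 32.0% lower in the first comparison, and 27.3% higher and 27.7% lower in the second. On TPM, 3 partners were higher and 30 lower in the first and 23 higher and 6 lower in the second, and with length offsets 11 and 18, then 17 and 10. Of all tested genes, 11.4% were higher and 65.9% lower on TPM in the first comparison and 46.6% and 15.3% in the second. With length offsets those shares were 26.6% and 27.9%, then 26.3% and 25.8%, and with library totals 19.6% and 46.9%, then 30.6% and 25.2%. The list counts that follow stand beside these shares. Ctsl, a lysosomal protease that cystatins inhibit, rose from 782 to 2276 CPM for APP/PS1 (log2 change 1.54, SE 0.03, edgeR adjusted p 6.47e-24). Malt1, which acts below Clec7a, rose by 0.60 (SE 0.04, edgeR adjusted p 1.19e-13), but by 0.20 on TPM (limma adjusted p 0.00082).

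Cd44, a receptor of osteopontin, was at 91.4 CPM for WT, 36.5 CPM for APP/PS1 and 193 CPM in knockouts, a log2 change of -1.32 (SE 0.04, edgeR adjusted p 8.05e-20) and then 2.40 (SE 0.04, edgeR adjusted p 5.43e-26). Itga4, an integrin chain, fell by 0.68 in APP/PS1 (edgeR adjusted p 1.91e-11) and was 0.66 higher in knockouts than APP/PS1 (edgeR adjusted p 4.97e-11). Itgal, the CD11a chain that shares its beta chain with Itgax, was -0.78 in the first comparison (edgeR adjusted p 2.03e-12) and 1.67 in the second (edgeR adjusted p 3.21e-20). Other integrin chains that bind osteopontin, chosen after their values were seen, did not follow that order: Itgb3 was at 0.26 (edgeR adjusted p 1.90e-05; -0.13 on TPM, limma adjusted p 0.0174) and then 0.42 (edgeR adjusted p 3.26e-09), and Itga9 at -0.53 (edgeR adjusted p 2.81e-11) and then -0.26 (edgeR adjusted p 2.25e-05). White blood cells other than microglia also make Cd44, Itga4 and Itgal, and the 14 monocyte and neutrophil markers summed to 3084 CPM ± 13.9 for WT, 957 CPM ± 15.7 for APP/PS1 and 8788 CPM ± 81.2 in knockouts (SD, n = 3). All 14 were lower in APP/PS1 than in WT and higher in knockouts than APP/PS1, and their part in the changes of Cd44, Itga4 and Itgal was not tested.

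Among the partners of Lpl, Angptl4, an inhibitor, was at 6.73 CPM for WT and 3.25 CPM for APP/PS1 (log2 change -1.05, SE 0.14, edgeR adjusted p 2.43e-07) and 0.72 higher in knockouts than APP/PS1 (edgeR adjusted p 0.000111). Apoc2, its activator, was at 2.0 CPM in knockouts against 0.828 CPM for APP/PS1 (log2 change 1.26, SE 0.28, edgeR adjusted p 0.000463). The fatty acid receptor Cd36 was lower in knockouts than APP/PS1 by -0.62 (SE 0.07, edgeR adjusted p 3.21e-08; -0.40 on TPM).

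Of the proteins around Igf1, the binding proteins Igfbp2 and Igfbp5 were lower in knockouts than APP/PS1 by -0.92 (edgeR adjusted p 8.03e-10) and -0.60 (edgeR adjusted p 4.00e-08), and Igfbp4 and the signalling adaptor Irs2 were lower in APP/PS1 than in WT by -0.60 (edgeR adjusted p 1.55e-09) and -0.79 (edgeR adjusted p 4.05e-15). Igfbp2 was at -0.42 with length offsets (edgeR adjusted p 0.000178), and on TPM Igfbp5 was at -0.35 (limma adjusted p 0.000852) and Igfbp4 at -0.97. Other brain and vessel cells also make these binding proteins, and the 12 vessel markers summed to 1358 CPM for WT, 1265 CPM for APP/PS1 and 938 CPM in knockouts, whose part was not tested.

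Relatives by family were mixed. Of 26 tested tetraspanins, Cd9 and Cd63 included, 14 were higher and 5 lower in APP/PS1 than in WT with TMM scaling, where 26.9% and 32.0% of all tested genes were (13 and 8 with library totals), but 6 higher and 13 lower on TPM, where 11.4% and 65.9% of all tested genes were and their median was -0.35. Between knockouts and APP/PS1 6 were higher and 15 lower (8 and 10 on TPM). The largest rise in APP/PS1 outside the 10 genes was that of Tspan6 (1.30, SE 0.18, edgeR adjusted p 1.01e-06), at 3.82 CPM, and Tspan32 fell by 1.17 (SE 0.10, edgeR adjusted p 2.29e-10). Both then moved the other way between knockouts and APP/PS1, by -1.14 (edgeR adjusted p 7.58e-06) and 0.78 (edgeR adjusted p 9.95e-07). On TPM the changes of Tspan6 were 0.66 and -0.72. Of the type 2 cystatins other than Cst7, Cst3, which microglia secrete in large amounts, was at 6429.6 CPM for WT, 14254 CPM for APP/PS1 and 8607 CPM in knockouts, with log2 changes of 1.15 (edgeR adjusted p 2.73e-17) and -0.73 (edgeR adjusted p 6.87e-14). With length offsets its changes were 0.51 (edgeR adjusted p 4.66e-08) and -0.23 (edgeR adjusted p 0.000172).

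In a second list of 35 genes known to rise around plaques, 33 were higher and 2 lower in APP/PS1 than in WT, with a median log2 change of 1.40. With TPM the counts were 28 and 5, and with length offsets 31 and 4. The largest change was that of Baiap2l2, an actin-binding adaptor (6.46, SE 0.15, edgeR adjusted p 7.90e-22), and the lowest that of Cybb, a subunit of the NADPH oxidase (-0.45, SE 0.03, edgeR adjusted p 9.17e-12; -0.83 on TPM). Between knockouts and APP/PS1, 13 were higher and 16 lower, with a median of 0.02, and 20 higher and 10 lower on TPM and 16 and 12 with length offsets. Fabp5, a fatty acid carrier, fell by 1.86 there (SE 0.05, edgeR adjusted p 2.16e-22), from 136 to 37.3 CPM. Cybb, which neutrophils also make, was 1.64 higher (SE 0.03, edgeR adjusted p 4.36e-24), alongside the rise of the monocyte and neutrophil markers given above, whose part in the change of Cybb was not tested.

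**Figure D4:**
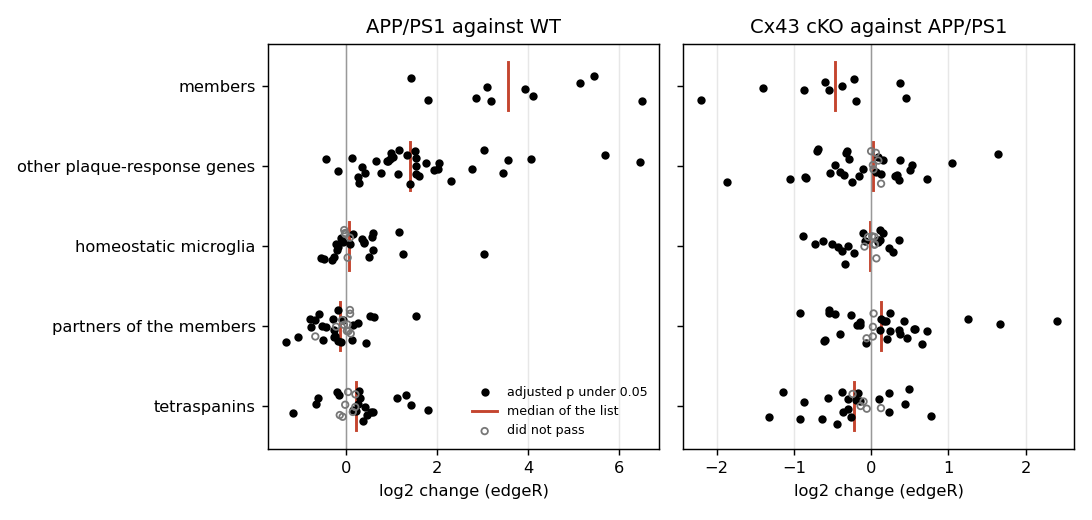
Log2 changes of single genes (points; filled where the edgeR adjusted p was under 0.05) and list medians (red lines) for the 10 genes and 4 other lists, in APP/PS1 against WT (left) and Cx43 cKO against APP/PS1 (right). The 10 genes have a median of 3.55 on the left and -0.46 on the right, against 1.40 and 0.02 for the second plaque list.

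Resting-state genes moved in both directions. Of 26 homeostatic genes, 12 were higher and 9 lower in APP/PS1 than in WT with TMM scaling, where 26.9% and 32.0% of all tested genes were, against 7 and 16 on TPM and 10 and 13 with library totals. Fcrls, a microglial receptor-like protein of that list, rose most, from 195 to 1583 CPM (3.02, SE 0.03, edgeR adjusted p 2.08e-31), and Txnip, a redox regulator, was lowest at -0.56 (SE 0.03, edgeR adjusted p 8.39e-16; -0.95 on TPM). Between knockouts and APP/PS1 8 were higher and 11 lower (16 and 8 on TPM, 12 and 10 with library totals), from -0.88 for Cx3cr1 to 0.37 for Sparc, a matrix protein (SE 0.03, edgeR adjusted p 3.79e-11, and 0.56 on TPM). The change of Cx3cr1 cannot be told apart from the presence of the CreER allele expressed from that gene. Among 18 transcription factors with known roles in macrophages, 2 were higher and 11 lower in APP/PS1 (4 and 9 with DESeq2 size factors, 5 and 9 with length offsets, 1 and 17 on TPM), with Bhlhe40, a regulator of lipid and lysosomal genes in microglia, highest at 0.53 (SE 0.03, edgeR adjusted p 3.80e-13; 0.13 on TPM, limma adjusted p 0.00229) and Tfec, of the Mitf family, lowest at -1.32 (SE 0.18, edgeR adjusted p 4.01e-07; -0.82 on log2(FPKM + 1)). Between knockouts and APP/PS1 10 were higher, led by Tfec (1.08, edgeR adjusted p 1.45e-05; 0.60 on log2(FPKM + 1)), and 1 was lower, Maf (-0.11, edgeR adjusted p 0.0094), which turned to the other sign on TPM (0.084, limma adjusted p 0.0448).

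For each of the 10 genes the most similar pattern among 13583 other genes was sought as the smallest distance over the 9 libraries between log2 CPM values taken relative to the WT mean. Cd9 was closest to Fmn1, an actin nucleator (distance 0.153), Clec7a and Itgax both to Fcrls (0.304 and 0.413), Cd63 to Ssr4, of the protein translocation machinery (0.330), and Ank to Minar1 (0.424), which also was higher in knockouts than APP/PS1 (log2 change 0.36). Igf1 was closest to Trpm1, a cation channel (0.549), Lpl and Gpnmb to Dkk2, a Wnt inhibitor (1.07 and 1.69), and Cst7 to Baiap2l2 (1.99). Spp1 had its nearest gene outside the 10, Lgi2, at 2.31 and was closer to Gpnmb, at 1.03. Between knockouts and APP/PS1 Dkk2 was at -0.28 where Lpl was at 0.37, and Baiap2l2 at 0.13 where Cst7 was at -0.60. The other nearest genes had the sign of their member there. Trpm1, Dkk2, Baiap2l2, Lgi2 and Minar1 were at 0.0829, 0.231, 0.412, 1.07 and 1.96 CPM for WT, where the 0.5 CPM added before taking logs alters the distance. In APP/PS1 against WT the fitted changes of Trpm1 and Dkk2 were 6.57 and 5.68, where those of Igf1 and Lpl were 3.93 and 4.09.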

How the data were processed

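Estimated counts, FPKM, TPM and normalised counts per gene and library were deposited by the authors in a single table. Per the submitters' processing notes, HISAT, Bowtie2 and DESeq2 were used on GRCm38.p6, and neither the counting program nor the strand setting is given in the sources used here. Per the file headers, the estimated counts are not scaled, the FPKM and TPM values are divided by transcript length, and the normalised counts are a signal scaled by a single factor per library. The last matched DESeq2 size factors and were not used in tests. Libraries were single-end reads of 50 nt from DNBSEQ, per the labels' protocols.

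Counts were rounded to whole numbers, since the planned test had assumed plain counts. All 9 libraries entered a single edgeR quasi-likelihood fit (edgeR 4.0.16 under R 4.3.3) after filterByExpr and TMM. P-values were adjusted by Benjamini-Hochberg across the 14696 genes tested, and 0.05 was the threshold. Length offsets used 10 bins of the length implied by count and FPKM. FPKM and TPM were tested with limma 3.58.1 on log2 values with pseudocounts of 1 or 0.1. The steps were tested on simulated data. Between 3 libraries and 3, an exact permutation p cannot be under 0.1.

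The genes and lists were chosen with earlier results of these data known. Named partners passed the threshold with at least a 1.5-fold change, except Itgb3 and Itga9, which were chosen after their values were seen. Of the other lists the highest and lowest called genes with a mean of at least 1 CPM were named. Other alternatives were DESeq2 1.42.0, limma-voom, other filters and thresholds, only the groups compared, the replicate number as a block and leaving out each library. Deviations of same-numbered libraries from their group means correlated at 0.14 to 0.28 over 3 pairs of WT and APP/PS1 and at 0.10 to 0.29 over 3 of WT and knockouts, all above 0.1, and at 0.055 to 0.23 over 3 of APP/PS1 and knockouts, 1 of them under 0.1, and libraries of different numbers at 0.053 or less. In 10813 genes averaging 100 counts or more, no 2 libraries agreed within sampling noise (chi-square per gene at least 1.80).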

Additional observations from a re-analysis of the deposited data

How the results depend on the processing

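Under 16 alternatives, of which limma on log2(TPM + 1) with the replicate number as a block was chosen after seeing the data, and with each of the 9 libraries left out in turn, all 10 genes stayed higher in APP/PS1 than in WT and past the threshold. In Cx43 cKO against APP/PS1 a 2-fold minimum left 2 genes (Spp1 and Gpnmb), where 10 passed without it, and Cd63 against WT missed that minimum at 0.93. Cd9 had the opposite sign with length offsets (0.12) and with length offsets and the block (0.12), and the cause was not tested. The calls of Igf1 and Itgax in that comparison were lost on TPM, with and without the block (limma adjusted p 0.68 and 0.561 with it), and that of Igf1 on log2(FPKM + 0.1). None of the 270 values with a library left out changed its call or sign, and the largest shift was 0.11 on the log2 scale. Pseudocounts lower the changes of genes that are low in WT, such as Igf1 in APP/PS1 (3.04 with log2(FPKM + 1)).

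With the replicate number as a block, 10, 10 and 10 of the genes passed in the 3 comparisons, as without it. The labels do not say that a number marks a shared batch. By the check of pairs given with the processing, the numbers paired the libraries in both comparisons with WT and not between knockouts and APP/PS1, although each of the 9 libraries correlated best with its own number. The biological coefficient of variation was 3.14%, and 0.988% with the block, so small differences passed. Library totals, FPKM with a pseudocount of 1 and TPM moved the median of all tested genes in APP/PS1 against WT to -0.17, -0.11 and -0.35.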
